A study of Mus musculus with 6 samples.

Results

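Serpin transcripts were counted by RNA-seq in mTEC, medullary epithelial cells of the thymus, the stromal cells that display genes of other tissues to developing T cells. The family was taken as every gene in the deposited count table whose symbol starts with Serpin, leaving out 5 pseudogenes whose symbols end in -ps, -ps1 or a like suffix. This gave 63 members of 43432 gene IDs. The cells came from C57BL/6 mice aged 4 weeks. They were of 2 genotypes: Copa+/+ (WT, 3 libraries) and CopaE241K/+ (MUT, 3 libraries), the second heterozygous for an amino acid change in a COPI coat subunit. The labels name no transgene, treatment or pooling, nor do they tie libraries to animals, so the spread between libraries may be partly technical.

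Serpins are proteins of one fold, and most of them inhibit proteases by a suicide mechanism. The target protease cuts an exposed loop, the serpin changes shape, and the protease stays trapped in a covalent complex. Clade letters follow sequence. Clade A holds secreted proteins of the antitrypsin and antichymotrypsin type and hormone carriers, many of them made by liver. Clade B serpins mostly stay inside cells and protect them from proteases of granules and lysosomes. The remaining clades hold secreted regulators of clotting, fibrinolysis and complement, a collagen chaperone and the neuronal serpins. The thymus is of interest because mTEC transcribe many such tissue-restricted genes at low levels and in few cells.

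Library totals ran from 19934513 to 23366238 counts, and the members took between 0.188% and 0.332% of them. CPM values, the counts relative to the library total, are scaled by trimmed-mean (TMM) library sizes. Levels of different genes are compared only as RPKM, the CPM per kilobase of union exon length. Of the 10 listed mTEC markers, Aire measured 929 to 1563 CPM, Fezf2 442 to 866 and Tnfrsf11a 217 to 386, while Ccl21a had 4 counts in MUT 1 and MUT 3 and 0 in the other libraries. The summed CPM was 9636 to 12684 for the mTEC list and 113 to 207 for the cortical epithelial list. These sums are not scaled by gene length and serve to compare libraries, not lists. The summed lists of all 10 cell types overlapped between the genotypes. Of 65 single markers tested, 8 did not overlap (12.3%, against 9.35% of all genes tested), and 0 passed the adjusted p of 0.05 in the edgeR test. Lower in every MUT library were 7 of the 65, where the share over all genes tested was 3.96%. The 7 were Epcam (629, 641 and 751.2 CPM in WT and 418, 441 and 593 CPM in MUT), Ackr4, Adgre1, Ly6g, Tek, Alb and Ahsg, and Fgb was higher. Their part in the values of the serpins was not tested.

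Detection differed between the members and between the libraries. At least 1 count was found for 41, 51 and 54 of the 63 members in WT 1, 2 and 3, and for 44, 46 and 54 in MUT 1, 2 and 3. The libraries numbered 1 detected the fewest members in each genotype and those numbered 3 the most. The same libraries detected the fewest and the most genes of the whole table, from 17174 gene IDs in WT 1 to 24774 in MUT 3. In all, 31 members (49.2%) had counts in every library, against 31.5% of all gene IDs, 33.6% of which had no counts at all. Among genes that passed the filter on low counts the order was the other way, with 69.8% of the members and 77.9% of all genes counted in every library. Another 29 members were counted in some libraries only, and Serpina16, Serpina1d and Serpini2 had 0 counts in all 6. By clade, 15, 19 and 20 of the 25 clade A members were counted in WT 1, 2 and 3 and 15, 18 and 19 in MUT. Of the 27 clade B members 19, 22 and 24 were counted in WT and 21, 20 and 26 in MUT. Counts in every library were found for 11 members of clade A and 13 of clade B.

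**Figure D1:**
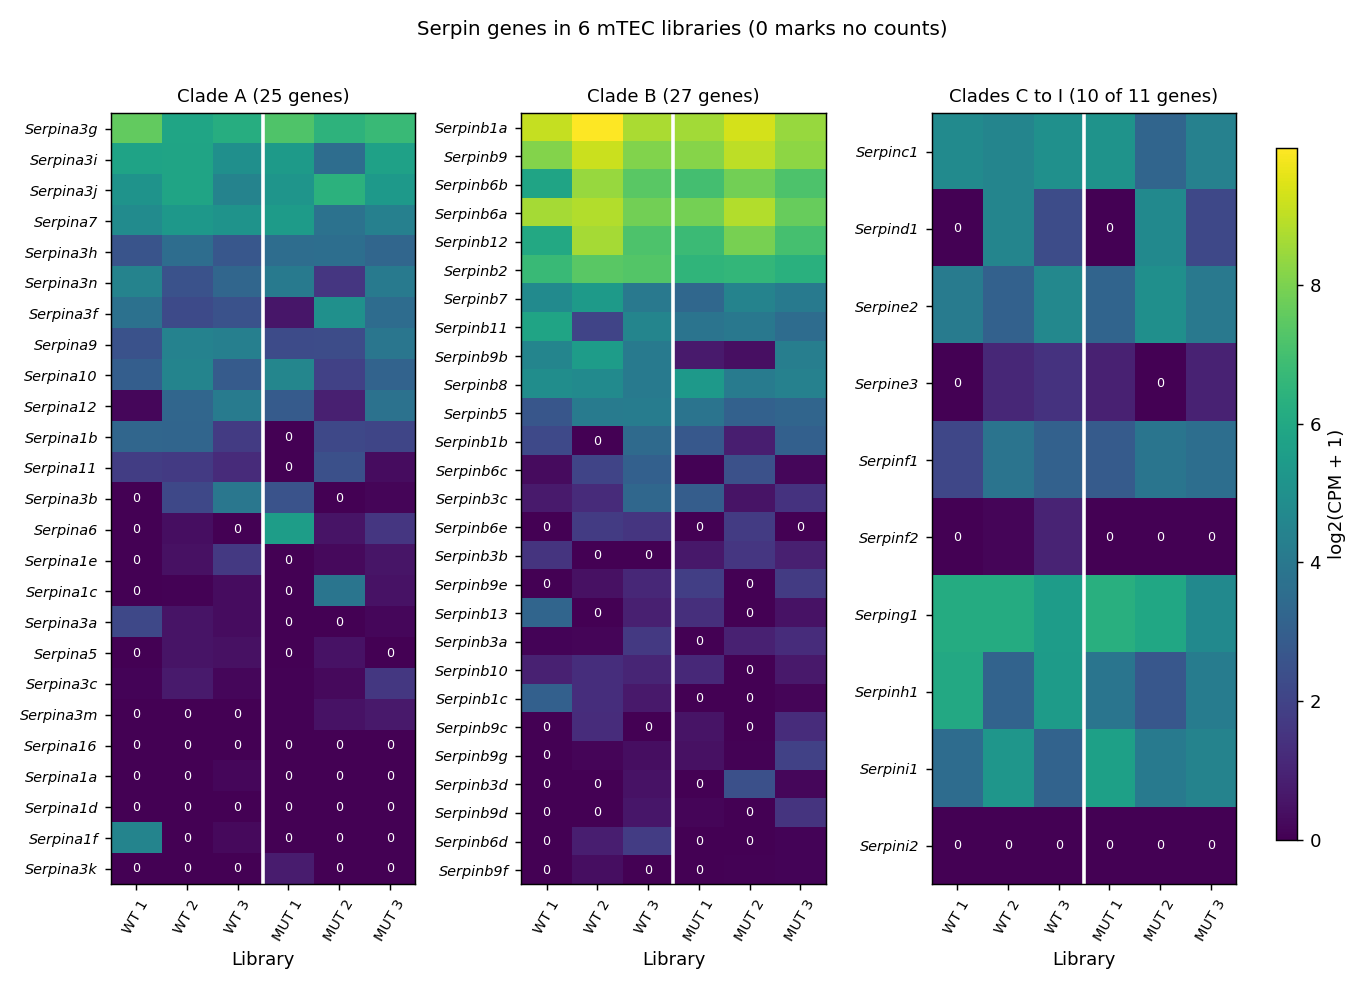
Level of 62 of the 63 Serpin genes (rows, by clade and median RPKM) in the 3 WT and 3 MUT libraries (columns), as log2(CPM + 1), with 0 printed where a library had no counts. The upper rows of clade B are bright in every library, while 29 members are patchy and 3 are empty throughout.

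Clade B carried most of the family's signal. It took 65.4% to 85.5% of the summed RPKM of all members in a library, clade A took 9.68% to 25.1%, and the other clades together took 4.82% to 9.50%. Its 27 members lie in 2 arrays. On chromosome 13, 15 of them span 1.16 Mb (32842092 to 34002794, GRCm38), and on chromosome 1, 12 span 0.75 Mb (106861173 to 107610484). All but 1 of the 25 clade A members lie in 0.80 Mb of chromosome 12 (103614786 to 104414329), and Serpina7 is on chromosome X. Of the array members, 10 of 24 on chromosome 12, 7 of 12 on chromosome 1 and 6 of 15 on chromosome 13 were counted in all 6 libraries.

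Serpinb1a was the highest serpin in all 6 libraries. It encodes an inhibitor of neutrophil serine proteases. Its level was 239, 436 and 182 RPKM in WT 1, 2 and 3 and 165, 277 and 150.3 RPKM in MUT, with a median of 211. Next by median came Serpinb9 at 85.2 RPKM, the inhibitor of granzyme B, followed by Serpinb6b at 69.0, Serpinb6a at 58.6 and Serpinb12 at 54.9. Over the libraries these 4 genes ranged from 77.4 to 163, 24.8 to 154, 37.5 to 84.5 and 25.4 to 157 RPKM. Within each library Serpinb9 was the highest of them by this measure. The order of Serpinb6b, Serpinb6a and Serpinb12 changed between libraries. With the longest transcript in place of the union of exons the same 10 genes led, but Serpinb6a came second, at 145 RPKM. Its exons overlap those of Nqo2 and Ripk1 on the other strand, and whether counting used strand is not given in the sources used here.

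Serpina3g was the highest clade A gene in all 6 libraries, with a median of 45.5 RPKM. It encodes an intracellular relative of antichymotrypsin known from activated lymphocytes. Its neighbours Serpina3i and Serpina3j had medians of 21.1 and 17.9 RPKM, with overlapping ranges of 4.91 to 24.8 and 9.66 to 39.3. Serpina7, the thyroxine-binding globulin gene, had 12.4 RPKM, and ranged from 5.11 to 17.7. Serpinb2, which encodes an inhibitor of urokinase, was at 43.3 RPKM. Among the single genes Serping1, the inhibitor of the first complement proteases, was highest at 27.8 RPKM. The 10 leading genes together held 85.98% of the family's summed median RPKM.

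**Figure D2:**
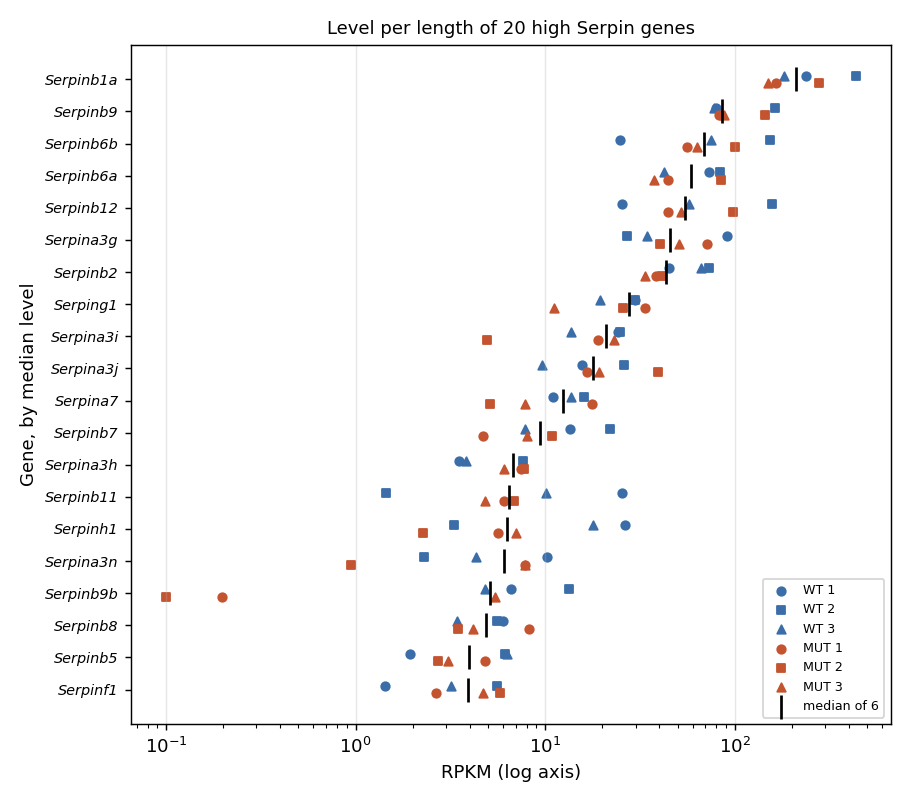
RPKM (log axis) of 20 Serpin genes with high median levels, by library (WT blue, MUT orange; circle, square and triangle for libraries 1, 2 and 3), with the median of 6 as a black bar. Serpinb1a lies highest at a median of 211 RPKM, and Serpinb9b lies far lower in MUT 1 and MUT 2 than in the other libraries.

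Mice carry several serpins as groups of recent copies, and in 2 of 6 such groups 1 copy held nearly all of the signal. Serpinb1a held 97.1% to 99.9% of the summed RPKM of the 3 Serpinb1 genes in a library. Serpinb9 held 89.5% to 99.9% of the 7 Serpinb9 genes, whose other copies have less well known targets. In the Serpinb6 group 2 of the 5 copies shared the signal, Serpinb6b leading in 5 libraries and Serpinb6a in WT 1. Which copy led depended on the length used. By the longest transcript the median of Serpinb6a was 145 RPKM and that of Serpinb6b 71.2. Serpina3g held 29.5% to 59.8% of the 11 Serpina3 genes. The Serpinb3 and Serpina1 groups, squamous-cell antigens and antitrypsins, had medians of at most 1.38 RPKM for any copy, and in neither did 1 copy lead throughout. Serpinb3c led its group in 4 libraries, Serpinb3b in WT 1 and Serpinb3d in MUT 2. Serpina1b led the antitrypsins in WT 2 (93.02%) and MUT 3 (69.6%), Serpina1c in MUT 2 (86.7%), Serpina1e in WT 3 (50.4%) and Serpina1f in WT 1 (65.6%), and MUT 1 had 0 counts of all 6.

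Copies that share sequence can exchange reads. Each member's annotated transcripts were therefore cut into all runs of 50 bases. Runs found in transcripts of any other gene, read in either direction, were counted. No run was shared for 18 members, among them Serping1, Serpinh1, Serpina6, Serpina7 and Serpinb12. Sharing stood at 0.378% for Serpinb9, 2.81% for Serpinb1a, 2.92% for Serpinb6b and 15.5% for Serpina3g. For Serpinb6a it was 25.1%. First among its sharing genes were Nqo2, 1110046J04Rik and Ripk1, which overlap its exons on the other strand, and its copy Serpinb6c came after them. Sharing was highest for Serpina1c (79.3%) and Serpinb9f (78.7%). Together with Serpina1a, Serpina1d and Serpinb9g these 5 shared over 50% of their runs, so their separate counts are uncertain. Serpina3k shared 14.04% and Serpina3m 19.1% of their runs, mostly with each other, and both were at 0 counts in WT and at 0 to 17 in MUT.

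Sparse members could still be strongly counted in 1 library. Serpina1f had 379 counts in WT 1, 4 in WT 3 and 0 in the other 4 libraries. Serpina1c had 287 counts in MUT 2, and 0, 1 and 6 in WT and 0 and 11 in the other MUT libraries. Serpina6, the gene of the corticosteroid carrier of plasma, had 964, 9 and 54 counts in MUT 1, 2 and 3 and 0, 6 and 0 in WT. Its genotypes therefore did not overlap, but 94.5% of its summed CPM lay in MUT 1, and it did not pass the filter on low counts. Among members that could be tested, 3 had over 50% of their summed CPM in 1 library, or 6.98%, against 19.5% of all genes tested.

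The genotypes were then compared. The quasi-likelihood test of edgeR called 0 Serpin genes at an adjusted p under 0.05, and called 0% of the 17172 genes tested. The filter on low counts, which looks at each library, was passed by 43 members, and 20 members were not tested. Of the 43, 2 had an unadjusted p under 0.05, where the share over all genes tested was 3.48%. Serpinb1c was 1 of them, lower in MUT (1.85% of all genes). The libraries of the 2 genotypes did not overlap for 3 of the 43, against 9.35% of all genes tested. Of the 3, Serpinb2 and Serpinb1c were lower in MUT (3.96% of all genes). DESeq2 called 0 of 60 fitted members at a background of 0.402% and 3 at an unadjusted p under 0.05, and limma-voom called 0 of 43 at 0% and also had 3. Without the filter edgeR called 0 of 60 (0.253% of genes), and with the replicate number as a block 0 of 43 (0.00582%). In clade A 4 of 13 tested members had a fitted log2 fold change above 0 (median -0.36), and in clade B 5 of 21 (median -0.44). Over the family these values lay above 0 for 14 tested members and below 0 for 29, with a median of -0.31, while that of all genes tested was -0.01. Serpinb1c, which passed the filter through its WT counts, enters these counts, and the median SE of a member's log2 fold change was 1.11.

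**Figure D3:**
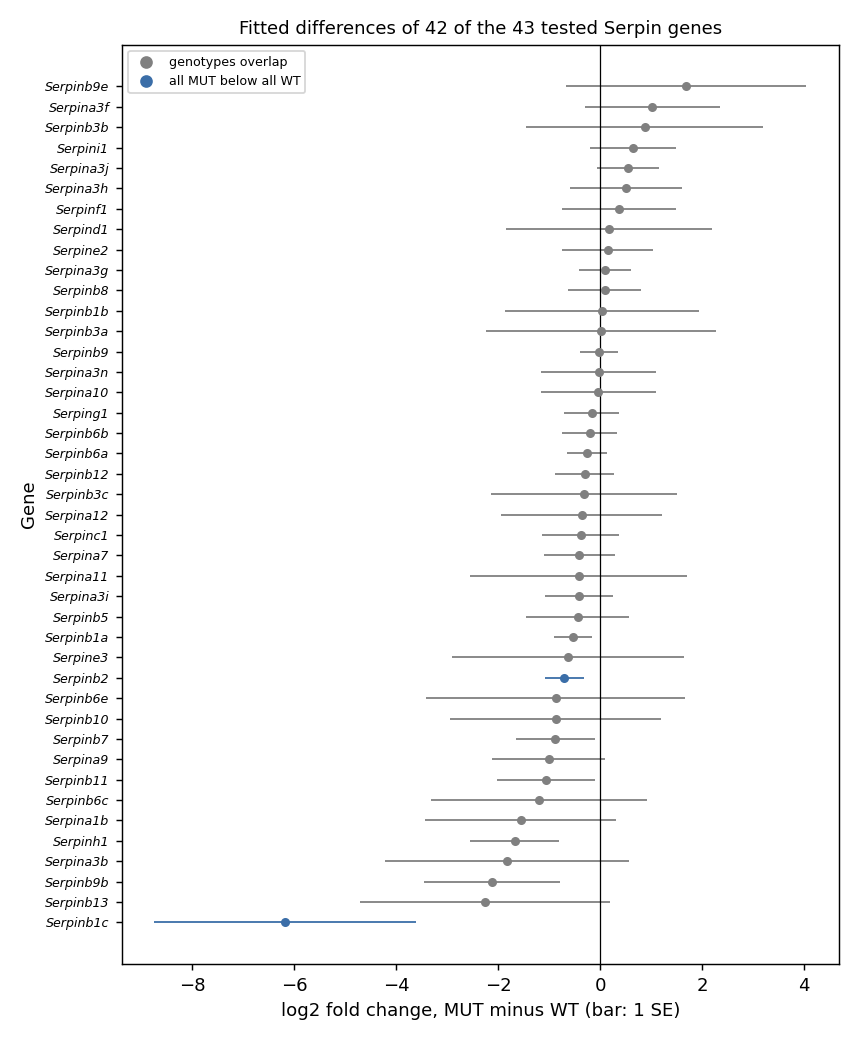
Fitted log2 fold change, MUT minus WT, of 42 of the 43 tested Serpin genes (points) with 1 SE (bars), in blue where all MUT libraries lay below all WT libraries. Serpinb2 at -0.70 and Serpinb1c at -6.17 are blue, and the other 40 shown overlap.

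Serpinb2 encodes a serpin that inhibits urokinase and, less well, tissue plasminogen activator (ENSMUSG00000062345, chromosome 1, 107511423 to 107535478). It measured 106.3, 171 and 156 CPM in WT and 90.8, 96.9 and 79.3 CPM in MUT, so that every MUT library lay below every WT library. The means were 144 ± 33.9 and 89.0 ± 8.95 CPM (SD, n = 3 each). The log2 fold change was -0.70 (SE 0.38), with an unadjusted p of 0.089 and an adjusted p of 0.999875 in edgeR's test. Its range without any 1 library was -0.88 to -0.57. Serpinb2 and Serpinb10 overlap by 291 bases of exon on the same strand, and Serpinb2 shared 10.4% of its runs with Serpinb10. Serpinb10 had at most 31 counts in a library, and how reads in the overlap were assigned is not given.

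The targets of Serpinb2 overlapped between the genotypes. Plau, urokinase, had 3.56, 16.4 and 30.1 CPM in WT and 6.46, 14.5 and 29.1 CPM in MUT, and its receptor gene Plaur ranged from 0.189 to 8.38 CPM over the 6 libraries. Plat, tissue plasminogen activator, measured 0.689, 6.59 and 23.9 CPM in WT and 7.36, 41.2 and 17.1 CPM in MUT. Serpine2, protease nexin, which inhibits thrombin and the plasminogen activators, measured 16.8, 7.58 and 24.03 CPM in WT and 8.16, 29.99 and 15.5 CPM in MUT. Its genotypes overlapped too, with a log2 fold change of 0.15 (SE 0.89), and Serpine3 stayed under 2 CPM in every library.

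Serpinb1c, a neighbour of Serpinb1a, had 128, 31 and 14 counts in WT 1, 2 and 3 and 0, 0 and 3 in MUT. It was chosen after its values were seen, since its mean CPM was under 5. Scaled by library size, the pooled counts (173 in WT and 3 in MUT) were 65.5 times higher in WT, with an exact interval of 22.1 to 321 that covers counting error only. Its log2 fold change was -6.17 (SE 2.57), at an unadjusted p of 0.033 and an adjusted p of 0.999875 in edgeR's test, and DESeq2 gave an adjusted p of 0.074. It passed the filter through its WT counts alone, of which WT 1 held most, and without WT 1 the log2 fold change was -4.61. The leading clade B genes overlapped between the genotypes. Serpinb6a measured 394.5, 450.8 and 229.7 CPM in WT and 239.2, 457 and 202.8 CPM in MUT, a difference of -0.26 on the log2 scale (SE 0.39). Serpinb6b measured 56.1, 349 and 169 CPM in WT and 127, 227 and 143 CPM in MUT (-0.21, SE 0.55). The abundant copy Serpinb1a measured 550.2, 1004 and 420.1 CPM in WT and 379.6, 637 and 346 CPM in MUT, overlapping, with a log2 fold change of -0.53 (SE 0.38), which was -0.10 without WT 2.

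**Figure D4:**
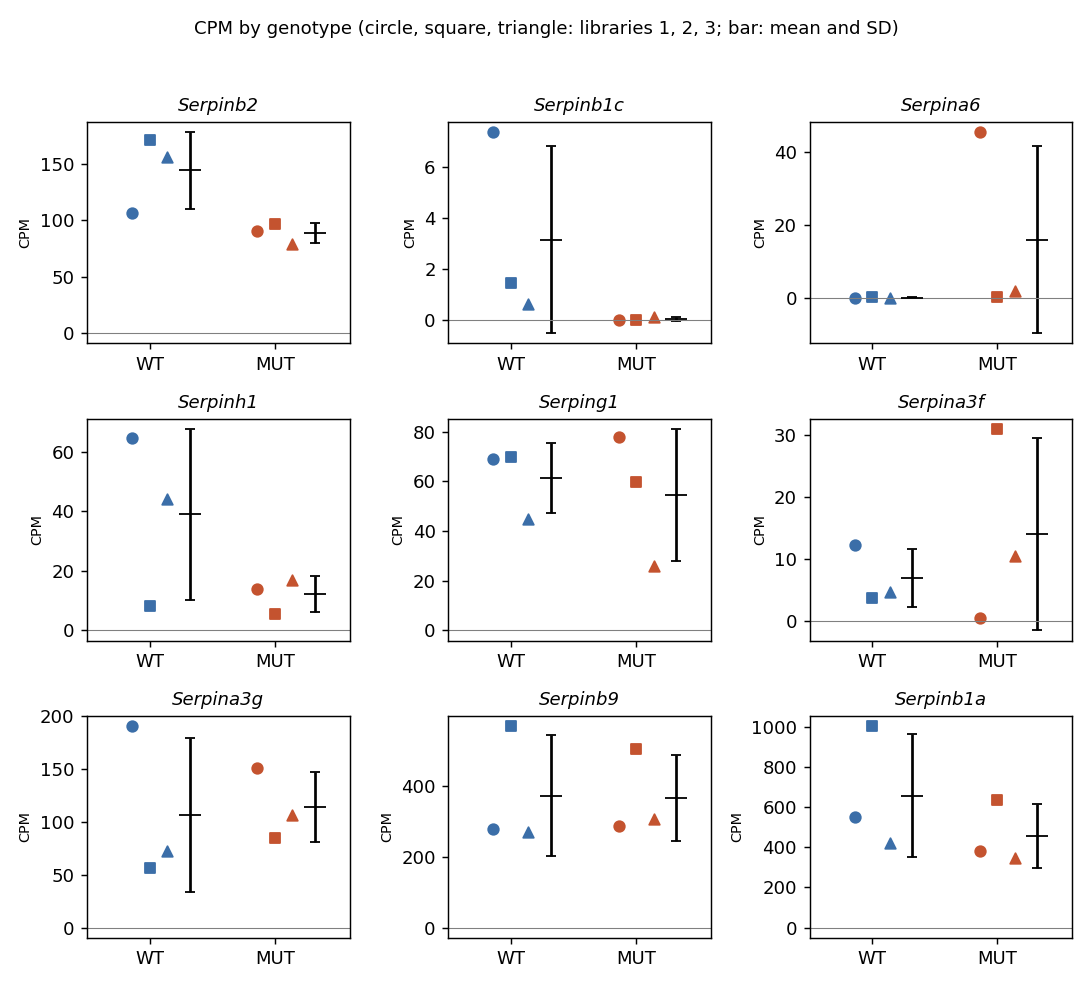
CPM of 9 Serpin genes in WT (blue) and MUT (orange) libraries, with the symbol giving the library number and the bar the mean and SD of 3. Serpinb2 (79.3 to 96.9 CPM in MUT against 106.3 to 171 in WT) and Serpinb1c are separated downward, the Serpina6 mean rests on MUT 1, and the remaining panels overlap.

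The serpins known to respond to interferons overlapped between the genotypes. These are Serping1, Serpinb9 and the neighbours Serpina3f and Serpina3g, and 2 interferon motifs were looked for in the promoters that RefSeq gives on GRCm38.p6, 250 bases before to 50 after a start. Promoters were found for 53 of the 63 members, Serping1 not among them. The 3 promoters below are shown because they hold such a motif in genes whose libraries overlapped between the genotypes, and the capitals mark it. They are chr12:104214294-104214593 (plus strand, the first of 2 starts), chr12:104235897-104236196 (plus strand) and chr13:33004291-33004590 (plus strand).
Serpina3f: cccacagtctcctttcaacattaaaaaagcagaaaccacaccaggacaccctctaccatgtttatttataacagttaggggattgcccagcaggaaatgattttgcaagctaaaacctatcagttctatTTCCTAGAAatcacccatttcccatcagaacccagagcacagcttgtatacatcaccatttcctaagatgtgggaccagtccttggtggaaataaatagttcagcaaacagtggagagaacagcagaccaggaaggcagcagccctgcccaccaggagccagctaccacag
Serpina3g: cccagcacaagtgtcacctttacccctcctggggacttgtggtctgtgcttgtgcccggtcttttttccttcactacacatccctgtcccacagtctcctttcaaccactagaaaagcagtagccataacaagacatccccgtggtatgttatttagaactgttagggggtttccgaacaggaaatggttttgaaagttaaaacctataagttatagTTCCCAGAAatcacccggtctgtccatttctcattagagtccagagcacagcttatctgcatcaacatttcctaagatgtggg
Serpinb9: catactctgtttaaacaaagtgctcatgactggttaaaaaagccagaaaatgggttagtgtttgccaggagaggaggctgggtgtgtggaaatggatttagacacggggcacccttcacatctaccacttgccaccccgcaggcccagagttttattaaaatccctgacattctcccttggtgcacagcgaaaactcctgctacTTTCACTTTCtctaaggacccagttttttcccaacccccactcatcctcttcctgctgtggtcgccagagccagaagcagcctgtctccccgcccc
The motif in Serpinb9 is the core of the interferon-stimulated response element, searched on both strands as GAAA, any 2 bases and GAAA again, and found here on the minus strand, 46 bases before the start. It is in 3 of the 62 member promoters (Serpina3a, Serpinb6a and Serpinb9) and in 3.44% of the 32851 mouse promoters. The motif in Serpina3f and Serpina3g is the gamma-activated site TTCNNNGAA, searched on both strands, which reads the same way on each. It starts 121 and 33 bases before the starts. It is in 11 of the 62 member promoters, which belong to 8 of the 53 members, and in 8.30% of all promoters. The 2 starts of Serpina3f hold the same site. The 2 motifs do not overlap in these promoters, and a match of letters does not show that a factor binds.

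Serpina3g measured 191, 56.9 and 72.7 CPM in WT and 150.7 and 85.2 and 106.4 CPM in MUT 1, 2 and 3, and WT 1 was the highest library. Its log2 fold change was 0.10 (SE 0.50), and it turned to -0.16 without MUT 1, -0.22 without WT 2 and -0.12 without WT 3. Serpina3f measured 12.3, 3.77 and 4.67 CPM in WT and 0.519, 31.04 and 10.6 CPM in MUT. MUT held both the lowest and the highest library, and the log2 fold change of 1.02 (SE 1.33) became -0.34 without MUT 2. Serpinb9 measured 279, 570.1 and 270.5 CPM in WT and 289, 507 and 306 CPM in the MUT libraries, a log2 fold change of -0.02 (SE 0.38). Serping1 measured 69.2, 69.6 and 45.02 CPM in WT and 78.02, 59.9 and 25.8 CPM in the MUT libraries. The log2 fold change was -0.17 (SE 0.54), or 0.17 without MUT 3. None of the 4 had an unadjusted p under 0.05, and with SE of 0.38 to 1.33 a modest change was not detectable.

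In clade A, Serpina3i measured 54.0, 55.05 and 30.5 CPM in WT and 42.3, 10.9 and 51.4 CPM in MUT, and MUT 2 was the lowest library. Serpina3j measured 33.8, 56.2 and 20.8 CPM in WT and 35.7, 84.6 and 41.6 CPM in MUT, and there MUT 2 was the highest. Serpina7 had 27.1, 39.04 and 33.4 CPM in WT and 43.4, 12.5 and 19.2 CPM in MUT. Their log2 fold changes were -0.42 (SE 0.66), 0.55 (SE 0.60) and -0.41 (SE 0.69), and all 3 overlapped between genotypes.

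The leading serpins of clades C, F, H and I were counted in every library and overlapped between genotypes. Serpinc1, antithrombin, had 26.7, 21.99 and 31.6 CPM in WT and 33.4, 8.48 and 19.7 CPM in MUT. Its exons overlap those of Zbtb37 on the other strand, and 33.6% of its runs were shared, with Zbtb37 first among the sharing genes. Whether counting used strand is not given, and the part of Zbtb37 in the Serpinc1 counts was not tested. Serpinf1, the pigment epithelium-derived factor, which inhibits no protease, had 3.39, 13.2 and 7.48 CPM in WT and 6.27, 13.6 and 11.1 CPM in MUT. Serpini1, neuroserpin, had 10.4, 36.9 and 8.05 CPM in WT and 49.9, 15.8 and 21.2 CPM in MUT. The fitted log2 fold changes of these 3 were -0.38 (SE 0.75), 0.36 (SE 1.12) and 0.65 (SE 0.84). Serpinh1, the collagen chaperone of the endoplasmic reticulum, measured 64.7, 8.05 and 43.9 CPM in WT and 13.8, 5.56 and 17.1 CPM in MUT. WT 1 and WT 3 lay above all MUT libraries and WT 2 within them, and its log2 fold change was -1.68 (SE 0.87, unadjusted p 0.077 in edgeR's test), or -1.11 without WT 1. Serpinf2, antiplasmin, had 2 and 22 counts in WT 2 and WT 3 and 0 elsewhere, and a count of 0 allows up to 3 counts.

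Library number went with level for several members in both genotypes. Of the 43 tested members, 13 (30.2%) were highest of their genotype in library 2 in both WT and MUT, against 13.2% of all genes tested. For libraries 1 and 3 the shares were 9.30% each, against 12.96% and 11.3% of all genes. The 13 included 8 of clade B: Serpinb1a, Serpinb2, Serpinb6a, Serpinb6b, Serpinb6e, Serpinb7, Serpinb9 and Serpinb12. Serpinb12 measured 63.4, 393 and 144 CPM in WT and 111, 245 and 130.3 CPM in MUT. Serpind1, heparin cofactor II, had 0, 467 and 90 counts in WT 1, 2 and 3 and 0, 539 and 97 in MUT, and so differed more between numbers than between genotypes (log2 fold change 0.18, SE 2.02).

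Of the 10 marker lists, 5 were highest in library 2 of both genotypes, the mTEC list among them (12684 CPM in WT 2 and 11217 in MUT 2). The summed CPM of the dendritic cell and macrophage list was 1167 in WT 2 and 1340 in MUT 2, and 536 to 642 in the other 4 libraries. That of thymocytes was 505 and 680.3 against 117 to 336, and that of the squamous list 155 and 180.1 against 8.90 to 58.1. That of neutrophils and mast cells was 465 and 386 against 183 to 352. The other 5 lists had their highest libraries elsewhere in at least 1 genotype, such as the hepatocyte list in MUT 1 (303 CPM against 282 in MUT 2) and the corneocyte list in WT 3 (656 against 559 in WT 2). Serpinb1a, Serpinb6a and Serpinb9 are also made by leukocytes, and the part of these cells in the values was not tested. In bulk libraries more cells of a type and more RNA per cell cannot be told apart.

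**Figure D5:**
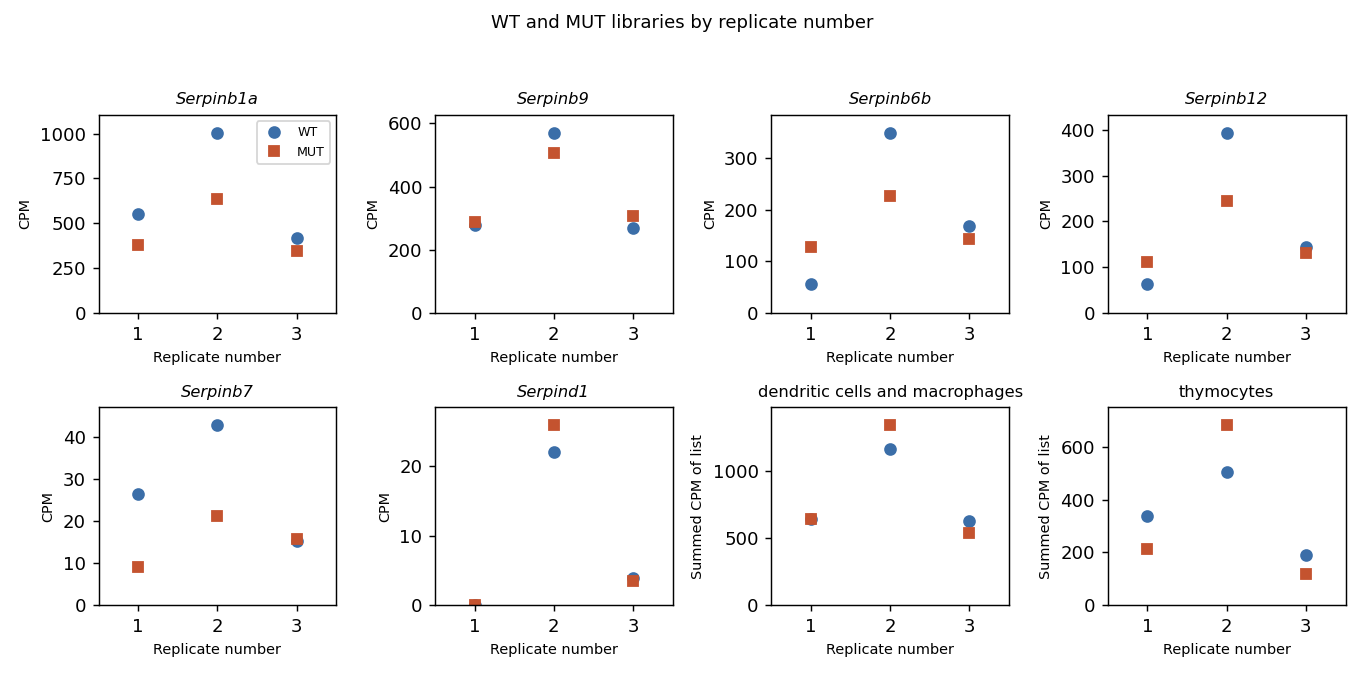
CPM of 6 Serpin genes and summed CPM of 2 marker lists, by replicate number in WT (blue circles) and MUT (orange squares). Library 2 is the highest of its genotype in all panels, with Serpind1 at 0 in both libraries numbered 1.

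Genes of proteases that serpins inhibit and of serpin partners, 46 and 13 of them as listed, were read from the same fit. Of the 45 proteases that had counts listed, 37 were tested, and of the 13 partners and receptors 12. Passing the adjusted p of 0.05 in edgeR's test were 0 in either direction, and 0 had an unadjusted p under 0.05, against 3.48% of all genes. Fitted values lay above 0 for 17 of the proteases and 6 of the partners, with median log2 fold changes of -0.05 and -0.0041, beside -0.01 for all genes. The smallest unadjusted p, 0.14, was that of Sdc1, a heparan sulphate proteoglycan, with 94.4, 34.4 and 38.1 CPM in WT and 41.98, 13.7 and 26.2 CPM in MUT. The tryptase gene Tpsab1 (0.15) and the clotting factor gene F7 (0.16) followed, and these had log2 fold changes of -1.03 (SE 0.65) for Sdc1, 3.27 (SE 2.13) for Tpsab1 and -3.08 (SE 2.06) for F7. The genotypes did not overlap for 3 of the 37 proteases, 2 of them higher and 1 lower in MUT, against 9.35% of all genes. Tpsab1 had 0, 16 and 19 counts in WT and 29, 254 and 54 in MUT, and F7 199, 41 and 111 in WT and 10, 0 and 46 in MUT. The remaining gene, C1ra, had 50, 2 and 34 counts in WT and 120, 120 and 81 in MUT (log2 fold change 1.68, SE 1.81).

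Targets of the abundant clade B serpins and lysosomal cathepsins were measured at unequal levels per length. Ctsh had a median of 118 RPKM over the 6 libraries, Ctsl 40.8, Gzmb, granzyme B, which Serpinb9 inhibits, 8.27, and Ctsg, cathepsin G, 0.046. Elane, neutrophil elastase, a target of Serpinb1a, had a median of 0.037 RPKM, with 22, 0 and 399 counts in WT and 0, 0 and 2 in MUT. Ctsg had 146, 0 and 119 counts in WT and 2, 0 and 0 in MUT. Between genotypes, Gzmb had 3.504, 5.51 and 16.2 CPM in WT and 16.2, 7.57 and 17.6 CPM in MUT. Ctsl had 284, 245 and 140.2 CPM in WT and 379.6, 472 and 166 CPM in MUT, and Ctsh 302 to 1026 CPM over the libraries. Gzmb, Elane, Ctsg, Ctsl and Ctsh all overlapped between the genotypes, and Elane and Ctsg did not pass the filter on low counts.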

How the data were processed

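The 6 mTEC libraries, 3 WT and 3 MUT, were grouped by sample title, and columns were matched by source name. The authors deposited raw read counts per Ensembl gene ID. The submitters' processing notes list GRCm38, DESeq2 1.26.0 and STAR 2.4.2a without their roles. No source used here names the counter, annotation or strandedness. Per the labels' protocols, cDNA came from the Nugen Ovation method and libraries from Nextera XT, and no molecular identifiers are described, so intervals cover counting error only. All library pairs differed beyond sampling noise (lowest chi-square per degree of freedom 84.4).

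All genes were fitted with edgeR 4.0.16 (R 4.3.3): TMM, filterByExpr, robust quasi-likelihood F-test on genotype, Benjamini-Hochberg adjustment at 0.05. The SE is the log2 fold change over the square root of F. CPM and RPKM used TMM-scaled library sizes and GENCODE M21 exons. The fit was tested on simulated data. Alternatives were the replicate block, DESeq2 size factors, no filter, a filter of 50 counts in 3 libraries, DESeq2 1.42.0, limma-voom (limma 3.58.1), each library left out, and detection at 3 or 10 counts.

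Genes named were the leading members by RPKM of each clade (4 for A and B), those with an unadjusted p under 0.05 or no overlap at a mean of 5 CPM, those with at least 100 counts in 1 library that held over 80% of their counts, the interferon-responsive list, and the 3 protease or partner genes with the smallest p. No member met the rule for 0 counts in 1 genotype and at least 10 in every library of the other. Others were chosen after their values were seen. Members and lists were chosen with earlier results of these data known. One listed protease gene was not analysed here. One member is in the counts over the family but is not reported here.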

Additional observations from a re-analysis of the deposited data

How the results depend on the processing

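The count of 0 Serpin genes and of 0 protease or partner genes past the adjusted p of 0.05 held under every alternative run: DESeq2 size factors, no filter, the stricter filter, DESeq2, limma-voom, the replicate block and each library left out. The median log2 fold change of the members stayed between -0.35 and -0.20. The number detected in all 6 libraries was 28 at 3 counts and 26 at 10 counts, and that detected in no library rose from 3 to 6 at 10 counts. Over all genes the median went from -0.01 to 0.15 with DESeq2 and 0.16 unfiltered.

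Same-numbered WT and MUT libraries share an ending of their source names, whose meaning the labels do not give. The correlations of their deviations were 0.10, 0.059 and 0.13, so that not every pair was over 0.1, and 6 of 6 libraries correlated best with their own number. Within numbers, 5 of the 43 tested members (Serpina9, Serpinb1a, Serpinb1c, Serpinb2 and Serpinh1) were lower in MUT each time, or 11.6% against 11.3% of all genes tested, and 4 were higher each time, or 9.30% against 14.2%. With the replicate block 0 Serpin genes passed, against 1 of all genes tested.

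Of 215 single-gene alternatives for 18 named members, 196 kept their direction and 19 reversed, and the cause was not tested. With limma-voom Serpinb6b went to 0.0395, Serpinb9 to 0.00069 and Serpind1 to -0.18. With the replicate block Serpinb6b went to 0.095 and Serpinb9 to 0.021. With single libraries left out, Serpina3f ranged from -0.34 to 1.73, Serpina3g from -0.22 to 0.81, Serpina3i from -0.81 to 0.00065, Serpinb6b from -0.64 to 0.55, Serpinb9 from -0.33 to 0.41, Serpind1 from -2.31 to 2.29, Serpinf1 from -0.0034 to 0.91 and Serping1 from -0.52 to 0.17. The 20 members that did not pass the filter had 0 to 1033 counts in all. The 17 of them with any counts were fitted without the filter and by DESeq2, and 0 were called.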

Other observations

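The 5 pseudogenes left out by the symbol rule were also patchy. Serpina3e-ps had 7, 0 and 6 counts in WT 1, 2 and 3 and 172, 5 and 19 in MUT. Serpina3d-ps had 0, 58 and 6 counts in WT and 0 in MUT. The other 3 (Serpina3l-ps, Serpina4-ps1 and Serpinb1-ps1) had at most 7 counts in a library. Serpina3h, which GENCODE M21 annotates as a transcribed pseudogene but whose symbol does not say so, was counted in every library (88, 232 and 125 counts in WT and 227, 232 and 241 in MUT). The fitted difference was 0.51 on the log2 scale (SE 1.11), and the genotypes overlapped. Serpinb10, which GENCODE M21 annotates as a polymorphic pseudogene, was also kept as a member, with 0 to 31 counts in a library.

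Serpinb9b, a copy next to Serpinb9, was chosen after its values were seen. It had 385, 953 and 366 counts in WT and 14, 7 and 502 in MUT, so MUT 1 and MUT 2 were low and MUT 3 lay within the WT range. Its log2 fold change was -2.12 (SE 1.33), with an unadjusted p of 0.14 in edgeR's test across all genes. Other members showed such gaps between libraries of 1 genotype too: Serpina12 had 2, 184 and 382 counts in WT and 135, 17 and 352 in MUT, and Serpinb11 966, 67 and 502 in WT and 282, 312 and 290 in MUT.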
